A study of Mus musculus with 6 samples.

Results

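Inhibitory checkpoint receptors are surface proteins that restrain an activated T cell, and the genes of 8 such receptors, of the activating receptor CD226 and of the PD-1 ligand PD-L1 are described here in mouse CD8+ T cells grown with or without acetate. The genes were taken by name from the deposited expression table, Pdcd1, Cd274, Ctla4, Lag3, Havcr2, Btla, Cd160, Tigit, Cd96 and Cd226, and all 10 were found among its 41095 genes. All 10 also passed the filter on low values, an average of 1 FPKM or more (reads relative to gene length in kilobases and to library size) across libraries, which 10867 genes passed.

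The 6 libraries held 3 of control cells and 3 of acetate-treated cells, all from wild-type mice. CD8+ T cells were selected from spleen and stimulated for 72 h by plate-bound antibodies to CD3 (5 µg/mL) and CD28 (2 µg/mL), coated over 24 h, which trigger the T cell receptor together with a costimulator, and with 30 U/mL of IL-2. These conditions were common to controls and treated cells, so both groups were stimulated. Treated cells received acetate for 48 h, at what is taken to be 5 mmol/L although the unit in the labels is irregular, and the controls are labelled as untreated. The labels give both groups the same culture time, whereas the design is described as before against after acetate. No label ties the libraries of a group to separate mice or cultures, and the spread behind the p-values may therefore be technical.

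In a T cell, PD-1 binds PD-L1 or PD-L2, CTLA-4 competes with the costimulator CD28 for CD80 and CD86, and TIGIT and CD96 compete with the activating receptor CD226 for CD155, the product of Pvr. BTLA and CD160 share the ligand HVEM, LAG-3 binds MHC class II and other ligands, and TIM-3 binds galectin-9 among others. T cell receptor stimulation induces several of these receptors, and lasting high levels of many of them together are known from exhausted CD8+ T cells in tumours and chronic infection.

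Reads recovered from the FPKM steps summed over genes to 31098394 to 39140711 per library. The library total implied by the same steps was 30623316 to 39141865. It was below the summed reads in acetate 2 and acetate 3 and above them in the other libraries. All 6 markers of the labelled cell type were abundant, at 138 to 321 FPKM in the control means, and 2 of them were called higher with acetate. These were Cd8a, at 308 ± 1.57 FPKM in controls and 352 ± 12.3 FPKM with acetate (SD, 3 libraries each), and Cd3g, at 284 ± 2.85 and 336 ± 18.3 FPKM (limma adjusted p = 0.00864 and 0.00656). Cd8b1 was at 321 ± 11.8 and 301 ± 10.1 FPKM, Trac at 265 ± 15.4 and 248 ± 6.16 FPKM, Cd3d at 163 ± 5.18 and 177 ± 12.4 FPKM and Cd3e at 138 ± 7.36 and 142 ± 3.94 FPKM, and none of these 4 passed. The 5 macrophage and monocyte markers found, of 6 listed, summed to 0.695 to 1.02 FPKM in controls and 0.605 to 0.974 FPKM with acetate, and 5 of 6 dendritic cell markers to 1.25 to 1.95 and 1.05 to 1.40 FPKM, so the groups overlapped in both. Itgam and Siglech, of those lists, were at 0 in all libraries, while Cd14 held 32 to 51 reads and H2-Ab1 44 to 86 reads. Adgre1, a macrophage marker with at most 14 reads in a library, was at 0.0955 ± 0.0343 FPKM in controls and 0.0194 ± 0.0202 FPKM with acetate. Its groups did not overlap. The 4 B cell markers used summed to 16.7 to 18.4 FPKM in controls and 16.8 to 18.2 FPKM with acetate, of which Cd79b was at 17.1 ± 0.783 and 17.2 ± 0.578 FPKM, and Ms4a1 held at most 10 reads in a library. Natural killer markers Ncr1 and Klrb1c held at most 6 reads each, and Klre1 held 27 to 55, at 0.348 ± 0.0837 and 0.343 ± 0.0822 FPKM. Eomes, which effector CD8+ T cells also express, made up most of the natural killer list. The gamma delta T cell markers Trdc and Sox13 held at most 23 and 28 reads.

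With acetate, 5 of the 10 genes fell and 3 rose (limma, Benjamini-Hochberg adjusted p under 0.05). Over all 10867 genes tested, 16.9% were called lower and 22.0% higher, or 38.9% in either direction. Tigit, Cd274, Ctla4, Pdcd1 and Btla fell, Cd160, Cd96 and Lag3 rose, and Havcr2 and Cd226 did not pass. The median change of the 10 genes was -0.20 on the log2(FPKM + 1) scale, against 0.02 over all genes tested. The acetate values lay all below the control values for 5 of the 10 genes and all above them for 3, and of all genes tested 23.1% and 28.8% did so, or 51.9% together. After rescaling to TPM the higher genes were 36.4% of all calls in place of 56.6%, and 45.3% with voom on recovered reads, while the counts among the 10 genes stayed at 3 higher and 5 lower under both. These are bulk samples, in which fewer cells that express a gene and less RNA per cell cannot be told apart.

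**Figure D1:**
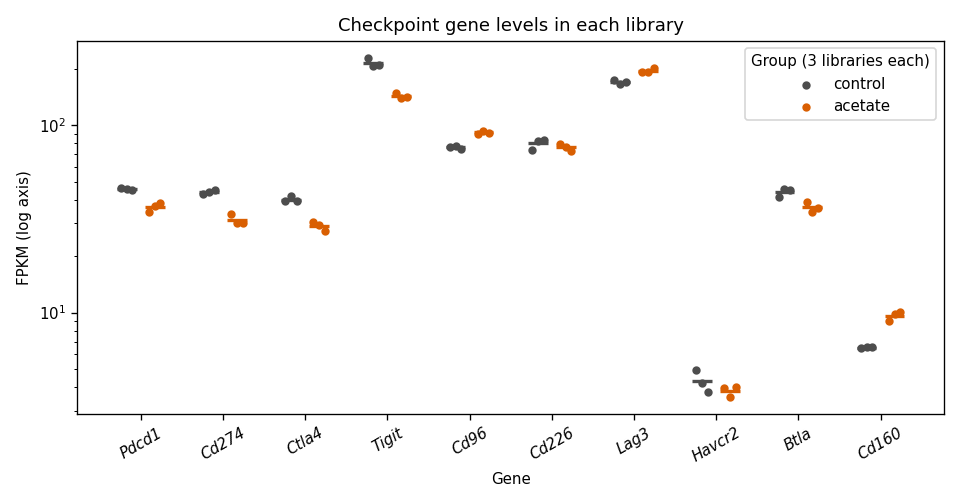
FPKM of the 10 genes (vertical log axis) in each library, with points for libraries and short lines for group means, n = 3 per group. Tigit and Lag3 stand highest and Havcr2 lowest in both groups, and Tigit and Lag3 change places between control and acetate.

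Pdcd1, which encodes PD-1, was at 46.3, 45.8 and 45.2 FPKM in the control libraries and at 34.4, 37.2 and 38.7 FPKM in the acetate libraries. Each acetate library was thus below each control library. The group means were 45.7 ± 0.522 and 36.8 ± 2.19 FPKM, a change of -0.31 ± 0.048 on the log2 scale (SE, limma adjusted p = 0.00238). Each library held between 2288 and 3202 reads of the gene.

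Cd274, which encodes PD-L1, was at 42.7, 43.8 and 45.1 FPKM in controls and at 33.5, 30.1 and 30.1 FPKM with acetate. The groups did not overlap, and the mean fell 1.40-fold, by 0.48 on the log2 scale with an SE of 0.051 (limma adjusted p = 0.000558). PD-L1 is best known from tumour and antigen-presenting cells, but activated T cells carry it too. The alternative PD-1 ligand PD-L2 is encoded by Pdcd1lg2, which lies 22.6 kb from Cd274 on chromosome 19 in the table's positions. It was less abundant and also fell, from 10.2 ± 0.189 to 7.36 ± 0.911 FPKM (limma adjusted p = 0.00408). The ratio of Pdcd1 to Cd274 within a library was 1.08, 1.05 and 1.00 in controls and 1.02, 1.24 and 1.28 with acetate. These ratios overlapped and did not pass an exact permutation test over libraries (two-sided p = 0.3, adjusted p = 0.3 over 6 ratios, n = 3 per group).

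Ctla4 was at 39.3, 41.7 and 39.3 FPKM in controls and at 30.3, 29.3 and 27.2 FPKM with acetate. No value of one group reached the other, and the gene fell 1.39-fold, by 0.46 on the log2 scale with an SE of 0.049 (limma adjusted p = 0.000584). The related genes Cd28 and Icos lie beside it on chromosome 1, with gaps of 130.4 kb and 68.5 kb. Cd28, the costimulator that binds the same ligands as CTLA-4, had 13.9 ± 0.518 and 14.7 ± 1.33 FPKM without passing (limma adjusted p = 0.437, log2 change 0.07). Icos, an inducible costimulator, fell from 27.2 ± 1.11 to 20.5 ± 0.531 FPKM (limma adjusted p = 0.000604). The ratio of Ctla4 to Cd28 was 2.96, 2.94 and 2.78 in controls and 1.94, 1.92 and 2.07 with acetate, so the groups did not overlap. With 3 libraries against 3, an exact permutation test cannot give less than 0.1, which is what this ratio had (two-sided, adjusted p = 0.12 over 6 ratios).

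The ligands shared by CTLA-4 and CD28 were also present in these cells. Cd86 fell from 34.3 ± 0.61 to 20.6 ± 0.756 FPKM, or 1.67-fold (limma adjusted p = 7.6e-05). Cd80, which also binds PD-L1, had 115 ± 4.64 and 109 ± 6.77 FPKM without passing (limma adjusted p = 0.266). Cd86, Cd80 and Cd274 are also genes of antigen-presenting cells, whose marker sums are given above, and the part of such cells in these values was not tested.

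Tigit encodes an inhibitory receptor for CD155 and had the highest FPKM of the 10 genes in controls. It was at 229, 207 and 209.8 FPKM in controls and at 148, 140.3 and 142 FPKM with acetate. The lowest control library was far above the highest acetate library, and the mean fell 1.50-fold, by 0.58 on the log2 scale with an SE of 0.049 (limma adjusted p = 0.000257). Among all genes tested, 3.2% had a larger log2 change in either direction.

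Cd96, an inhibitory or context-dependent receptor for the same ligand, was at 76.7, 77.7 and 74.3 FPKM in controls and at 90.2, 92.9 and 91.3 FPKM with acetate. It rose 1.20-fold without overlap, by 0.26 ± 0.035 on the log2 scale (SE, limma adjusted p = 0.00137), and by 0.17 with both quantile normalization and cyclic loess (adjusted p = 0.00626 and 0.00593). Cd226 encodes DNAM-1, the activating receptor of this set, and was at 74.1, 82.6 and 82.9 FPKM in controls and at 79.3, 76.0 and 72.9 FPKM with acetate. Its groups overlapped, and its log2 change of -0.07 had a 95% interval from -0.20 to 0.06 (limma adjusted p = 0.361).

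The balance within this set is given by ratios inside each library, which do not depend on how a library was scaled. Their size, but not their change between groups, depends on the gene lengths used. These were 963 bases for Tigit, 2357 for Cd226 and 2184 for Cd96. In reads, control libraries held 7234 to 7292 of Tigit and 5744 to 7052 of Cd226. Acetate libraries held 4191 to 5596 and 5263 to 7315. There were 3.09, 2.51 and 2.53 FPKM of Tigit per FPKM of Cd226 in controls and 1.87, 1.84 and 1.95 with acetate. Relative to Cd96, Tigit stood at 2.99, 2.67 and 2.83 in controls and at 1.65, 1.51 and 1.56 with acetate. Both ratios were lower in each acetate library than in each control library (exact permutation p = 0.1 each, the smallest possible, adjusted p = 0.12 over 6 ratios). Pvr itself fell from 13.2 ± 0.137 to 11.6 ± 0.236 FPKM (limma adjusted p = 0.00786). Nectin2, whose product binds TIGIT and CD226 more weakly, held 2 to 23 reads in a library and was below the filter, and Nectin1 and Nectin3 held at most 6 and 4 reads.

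**Figure D2:**
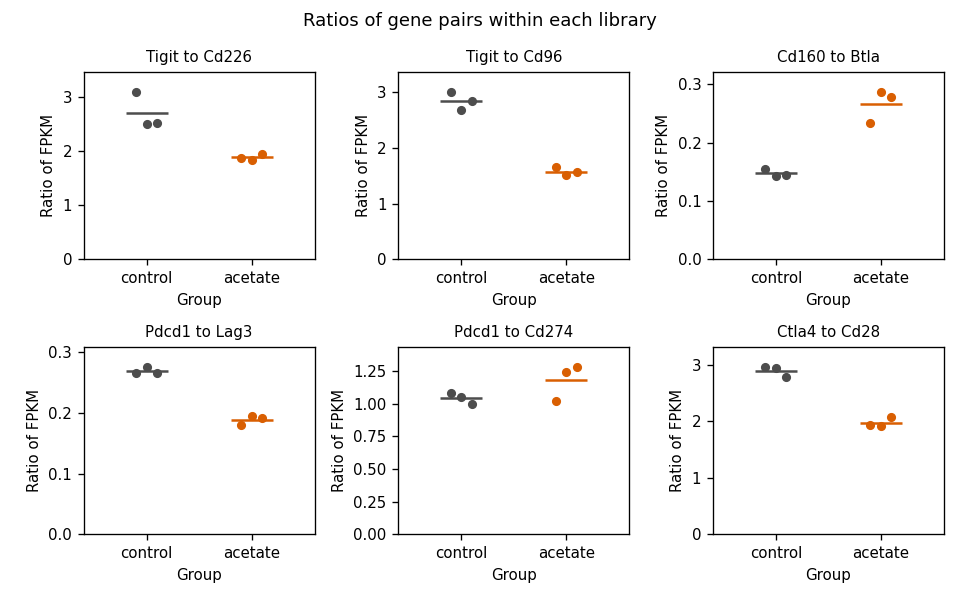
Ratios of FPKM of gene pairs (vertical axes, starting at 0) in each library, with points for libraries and lines for group means, n = 3 per group. The groups are apart in 5 of the 6 panels, and the Pdcd1 to Cd274 panel overlaps.

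Lag3, whose product binds MHC class II more tightly than CD4 does, was at 174, 167 and 170.2 FPKM in controls and at 191, 191 and 202 FPKM with acetate. It was higher in each acetate library, with a rise of 0.19 ± 0.040 on the log2 scale (SE, limma adjusted p = 0.00807). The rise was 0.12 with TPM (adjusted p = 0.0468). Quantile normalization (log2 change 0.10, adjusted p = 0.083) and cyclic loess (log2 change 0.09, adjusted p = 0.102) each ended that call. Of its other ligands, Lgals3, which encodes galectin-3, rose from 118 ± 2.66 to 152 ± 11.8 FPKM (limma adjusted p = 0.00287), and Fgl1 held at most 6 reads in a library. The ratio of Pdcd1 to Lag3 was 0.265, 0.275 and 0.266 in controls and 0.180, 0.195 and 0.191 with acetate, with no overlap (exact permutation p = 0.1, adjusted p = 0.12).

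Havcr2, which encodes TIM-3, was the least abundant of the 10 genes, with 334 to 441 reads in a library. It was at 4.93, 4.21 and 3.75 FPKM in controls and at 3.94, 3.55 and 4.01 FPKM with acetate. The groups overlapped, and the log2 change of -0.13 had a 95% interval from -0.34 to 0.08 (limma adjusted p = 0.3). Its ligand genes Lgals9, for galectin-9, and Hmgb1, for a chromatin protein that is also released from cells, rose, the first from 32.1 ± 1.67 to 41.4 ± 1.47 FPKM and the other from 63.1 ± 1.39 to 72.3 ± 1.21 FPKM (limma adjusted p = 0.00145 and 0.0044).

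Btla and Cd160 encode receptors for HVEM and moved in opposite directions. Btla was at 41.5, 45.9 and 45.3 FPKM in controls and at 38.7, 34.4 and 35.9 FPKM with acetate, a fall of 0.28 on the log2 scale with an SE of 0.057 (limma adjusted p = 0.0079). Cd160 was at 6.45, 6.56 and 6.51 FPKM in controls and at 9.05, 9.82 and 10.02 FPKM with acetate. It rose 1.48-fold, by 0.50 ± 0.049 on the log2 scale (SE, limma adjusted p = 0.000438), from 588 to 659 reads per control library to 851 to 983 per acetate library. Neither gene's groups overlapped. The ratio of Cd160 to Btla was 0.155, 0.143 and 0.144 in controls and 0.234, 0.286 and 0.279 with acetate (exact permutation p = 0.1, adjusted p = 0.12). HVEM itself, encoded by Tnfrsf14, had 21.8 ± 2.58 and 19.5 ± 2.11 FPKM without passing (limma adjusted p = 0.277).

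**Figure D3:**
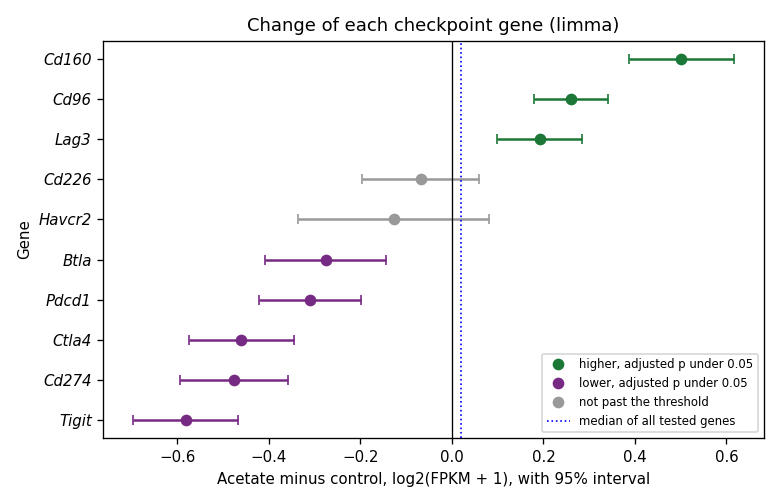
Change of each gene with acetate on the log2(FPKM + 1) scale (horizontal axis) with its 95% limma interval, ordered by size. Tigit, at -0.58, and Cd160, at 0.50, mark the ends, the intervals of Cd226 and Havcr2 span 0, and the dotted line is the median of all tested genes at 0.02.

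The order of levels in FPKM changed at its head. This order depends on the gene lengths used, 963 bases for Tigit and 2109 for Lag3. In reads, Lag3 was above Tigit in controls too, at 12096 to 12956 against 7234 to 7292. In controls Tigit was above Lag3, with ranges of 207 to 229 and 167 to 174 FPKM, while with acetate Lag3 was above Tigit, with ranges of 191 to 202 and 140.3 to 148 FPKM. In controls the next were Cd226 and Cd96, whose ranges overlapped, then Pdcd1, Btla and Cd274, where each overlapped the next in order, then Ctla4, Cd160 and Havcr2. With acetate Cd96 stood above Cd226 without overlap, Pdcd1 overlapped Btla, and Cd274 overlapped Ctla4. Of all genes tested, 2.38% had a higher mean level than Tigit and 75.3% a higher level than Havcr2.

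The FPKM of the 10 genes summed to 736, 722 and 722 in controls and to 659, 645 and 655 with acetate. Tigit made up 28.7% to 31.2% of that sum in controls and 21.7% to 22.5% with acetate. Lag3 made up 23.1% to 23.7% and 29.0% to 30.9%. The sums and both shares did not overlap between the groups. Their size also depends on the gene lengths used.

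**Figure D4:**
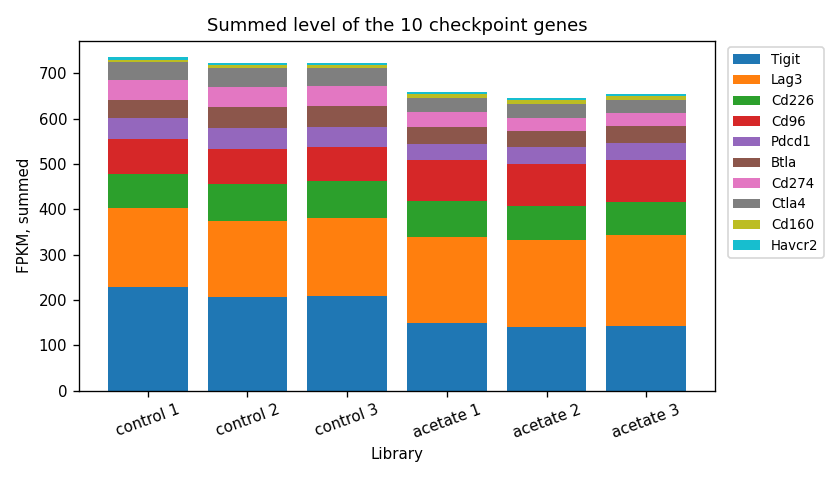
Summed FPKM of the 10 genes in each of the 6 libraries (vertical axis), divided by gene. The control bars reach 722 to 736 FPKM and the acetate bars 645 to 659 FPKM, and the Tigit segment shrinks while the Lag3 segment widens.

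Tigit, Btla and Cd96 lie on the same stretch of chromosome 16 (43333912 to 45949040, numbered as in the C57BL/6NJ table), with gaps of 1642.2 kb and 841.4 kb between them. Of 20 genes tested in that stretch, which Tigit and Cd96 bound, 4 rose and 6 fell, with these 3 called genes included. Over all genes tested, 22.0% were called higher and 16.9% lower, or 38.9% in either direction. Cd200, which lies there too and encodes the ligand of the inhibitory receptor CD200R, fell from 71.0 ± 1.42 to 53.4 ± 1.13 FPKM (limma adjusted p = 0.000284). The sequences before the start sites of these 3 neighbours are shown because the genes differ in direction. Such windows from RefSeq were searched for 8 of the 10 genes. Cd226 was left out of that search, and no window of Lag3 was among those searched. The windows have 220 bases, from 250 to 31 bases before the start because annotated exons reach into the bases that follow. They are on the GRCm38.p6 build and in the direction of the gene, and they are not on the same coordinates as the table. Tigit is chr16:43664215-43664434 on the minus strand, Btla chr16:45224087-45224306 on the plus strand and Cd96 chr16:46120279-46120498 on the minus strand. Capitals mark GGAAA or its reverse complement TTTCC, the core letters of NFAT sites. NFAT is the calcium-dependent factor that T cell receptor signals bring into the nucleus.
Tigit: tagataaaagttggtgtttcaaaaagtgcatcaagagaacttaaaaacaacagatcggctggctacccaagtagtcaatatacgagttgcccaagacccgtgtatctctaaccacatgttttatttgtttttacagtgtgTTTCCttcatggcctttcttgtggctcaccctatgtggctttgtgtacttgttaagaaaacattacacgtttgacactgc
Btla: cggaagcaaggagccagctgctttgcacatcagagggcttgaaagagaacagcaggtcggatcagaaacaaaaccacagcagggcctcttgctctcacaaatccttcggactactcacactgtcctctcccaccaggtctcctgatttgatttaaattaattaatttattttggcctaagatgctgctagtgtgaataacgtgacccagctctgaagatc
Cd96: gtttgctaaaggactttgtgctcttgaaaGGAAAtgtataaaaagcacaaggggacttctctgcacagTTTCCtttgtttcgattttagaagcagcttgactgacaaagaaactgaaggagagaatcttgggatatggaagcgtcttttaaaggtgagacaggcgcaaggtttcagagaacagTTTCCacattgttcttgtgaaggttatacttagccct
The letters occurred 1 time in the Tigit window, with the first base at -110, in 3 places in the Cd96 window, at -221, -182 and -67, and not in the Btla window. They occur on either strand in 51.3% of 32851 such windows. Of the other patterns searched, TTCNNNGAA of STAT factors occurred in the Cd96 window and in 6.27% of windows. TGANTCA of AP-1 (6.12% of windows), TTTCGCGC of E2F (0.216%) and longer NF-kB and IRF patterns (1.17% and 2.63%) occurred in none of the 3. Among the other genes searched, the STAT letters also occurred in a Cd160 window, at -234, and the AP-1 letters in the Havcr2 window, at -200. The NFAT core letters occurred in windows of Ctla4, Cd274 and Cd160.

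Beyond these 10 genes, each of the 7 related lists held genes that rose and genes that fell. Falls outnumbered rises most among transcription factors (19 against 6) and other inhibitory receptors (6 against 1). The counts below stand beside 22.0% called higher and 16.9% called lower over all genes tested. Of 20 listed ligands and binding partners 9 were tested, of which 3 rose and 3 fell, with a median log2 change of -0.08. Of 8 activating and costimulatory receptors 3 rose and 2 fell (median 0.12). Tnfrsf4 and Tnfrsf18, which encode OX40 and GITR, rose, the former from 96.3 ± 3.01 to 132 ± 4.66 FPKM and the latter from 73.5 ± 1.87 to 94.4 ± 4.52 FPKM (limma adjusted p = 0.00037 and 0.00113). Cd27 rose from 30.1 ± 0.399 to 33.9 ± 1.41 FPKM (limma adjusted p = 0.0168), a call lost when control 1, control 2 or acetate 2 was left out (adjusted p = 0.0509 to 0.0653), with TPM (adjusted p = 0.12), with quantile normalization and cyclic loess (0.0777 and 0.0966) and with voom (0.0549).

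Of 12 tested genes of other inhibitory receptors and their partners, 6 fell and 1 rose, with a median of -0.09. The shares over all genes tested were 16.9% lower and 22.0% higher. Klrd1, which encodes the CD94 chain of NKG2 receptors, fell from 25.5 ± 1.09 to 17.4 ± 0.69 FPKM, and Adora2a, the adenosine receptor, from 28.4 ± 2.43 to 19.3 ± 1.36 FPKM (limma adjusted p = 0.000322 and 0.00146). Slamf6, a receptor of the SLAM family, fell from 10.4 ± 0.521 to 7.42 ± 0.27 FPKM (limma adjusted p = 0.000819).

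Of 23 tested signalling partners of these receptors 5 rose and 3 fell, with a median of 0.00. These counts are near the shares over all genes tested, 22.0% higher and 16.9% lower. Dgka, a diacylglycerol kinase that dampens T cell receptor signals, fell from 84.8 ± 1.85 to 63.6 ± 0.868 FPKM, and the adaptor gene Lat rose from 99.9 ± 6.06 to 126 ± 6.04 FPKM (limma adjusted p = 0.00024 and 0.00326). The ubiquitin ligase genes Cbl and Cblb fell by 0.24 and 0.15 on the log2 scale (limma adjusted p = 0.0157 and 0.0212), the latter by 0.23 with quantile normalization and by 0.24 with cyclic loess. The call of Cbl was lost without control replicate 3 or acetate replicate 2 (adjusted p = 0.0507 and 0.0574), and that of Cblb (adjusted p = 0.0554 to 0.0691) when control 1, control 3, acetate 2 or acetate 3 was missing.

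Of 42 tested transcription factor genes tied to checkpoint receptor genes 19 fell and 6 rose, with a median of -0.14. All genes tested had 16.9% lower and 22.0% higher. The 4 of lowest p were Fosl2, of the AP-1 family, from 9.66 ± 0.0519 to 5.92 ± 0.216 FPKM, Nfil3 from 25.8 ± 1.62 to 16.2 ± 0.625 FPKM, Irf2 from 26.4 ± 0.401 to 20.2 ± 0.423 FPKM and Stat3 from 135 ± 1.10 to 109 ± 1.70 FPKM, all lower (limma adjusted p of at most 0.00053). Of 24 tested genes of interferon signalling and PD-L1 stability 7 rose and 6 fell (median -0.08). Socs1, an inhibitor of JAK kinases, and the deubiquitinase gene Usp7 rose, the former from 55.8 ± 2.60 to 68.9 ± 0.744 FPKM and the latter from 39.2 ± 0.72 to 47.3 ± 0.172 FPKM. Spop, a ubiquitin ligase adaptor that acts on PD-L1, fell from 45.0 ± 1.27 to 38.5 ± 1.51 FPKM, and B4galt1, a galactosyltransferase, from 38.2 ± 1.07 to 31.4 ± 0.858 FPKM.

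Of 18 tested genes of receptor trafficking, shedding and degradation 5 fell and 3 rose, with a median of -0.01. Among all genes tested, 16.9% were called lower and 22.0% higher. Trat1, which encodes the adaptor TRIM that brings CTLA-4 to the cell surface, fell from 29.4 ± 2.27 to 13.6 ± 1.09 FPKM, or 2.16-fold (limma adjusted p = 0.00012), the largest log2 change among the tested genes of the 7 related lists. Mgat5, which branches N-glycans on surface receptors, fell from 12.4 ± 0.401 to 9.28 ± 0.121 FPKM, and Rab11a, a GTPase of recycling endosomes, rose from 30.1 ± 0.287 to 35.5 ± 1.06 FPKM.

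**Figure D5:**
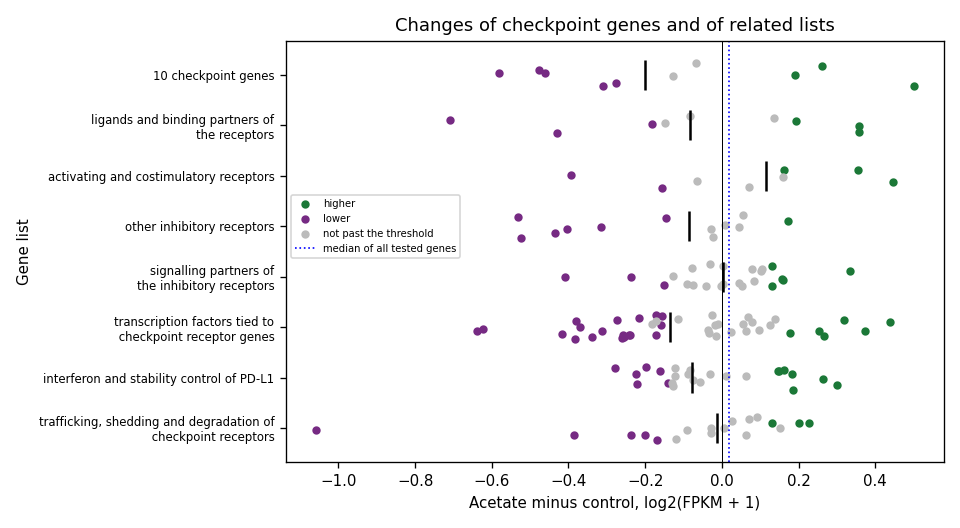
Change with acetate on the log2(FPKM + 1) scale (horizontal axis) of each tested gene in the 10 checkpoint genes and in 7 related lists, with points coloured by call and black lines for list medians. Trat1 lies furthest to the left at -1.06, and the transcription factor list has 19 genes lower and 6 higher. Of all genes tested, 16.9% were called lower and 22.0% higher.

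CTLA-4 and TIGIT are also abundant on regulatory T cells. The list of CD4+ and regulatory T cell markers summed to 33.9 to 35.0 FPKM in controls and 25.5 to 28.0 FPKM with acetate, and 2 of its 3 tested genes fell. These were Zbtb7b, which encodes the CD4 lineage factor ThPOK, from 13.0 ± 0.17 to 7.12 ± 0.388 FPKM, and Ikzf2, from 12.6 ± 0.0933 to 9.48 ± 1.17 FPKM (limma adjusted p = 9.9e-05 and 0.00753). The other tested gene, Cd40lg, was at 8.28 ± 0.801 and 8.78 ± 0.557 FPKM without passing (limma adjusted p = 0.44). Foxp3, which defines regulatory T cells, held 9 to 25 reads in a library, at 0.0951 ± 0.0395 and 0.126 ± 0.0331 FPKM with overlap. Cd4, below the filter, was at 0.641 ± 0.119 and 0.944 ± 0.138 FPKM and was higher in each acetate library. The lower sum with acetate thus came from Zbtb7b and Ikzf2. The part of such cells in the falls of Ctla4 and Tigit was not tested.

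Likeness to the patterns of Tigit and Cd160, the members of lowest p in each direction, was measured as Pearson's r of log2(FPKM + 1) over the 6 libraries among 7170 protein-coding genes averaging 5 FPKM or more. Nearest to Tigit were Cars, a cysteinyl-tRNA synthetase, Nfil3 and Inf2, a formin, at r of 0.9995, 0.999 and 0.9986. Nearest to Cd160 were Fam98a, the transcriptional repressor gene Gfi1 and the zinc finger gene Zfp410, at r of 0.9992, 0.9989 and 0.9988. All genes share the same 6 libraries, which fall into 2 groups, and 515 and 849 of the genes searched had r above 0.95 with Tigit and Cd160.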

How the data were processed

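RNA was measured in 3 control and 3 acetate libraries. Per the labels' protocols, TruSeq libraries of total RNA were read from both ends on a NovaSeq instrument. Per the submitters' processing notes, cutadapt 1.18 and HISAT2 2.1.0 were used, and mm10 is the build named, while gene identifiers belong to the C57BL/6NJ strain annotation. How reads were counted, with or without strand, is not given in the sources used here, so reads of overlapping genes cannot be told apart. The authors deposited FPKM per gene, from which reads were recovered: value times gene length fell on steps of equal size in each library, for 100.0% of values above 0 at a tolerance of 0.01 reads. Counts of reads include both ends of a pair where these were counted separately.

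Genes averaging 1 FPKM or more were compared as log2(FPKM + 1) by limma 3.58.1 in R 4.3.3, with an abundance trend and no covariate. The fit covered 10867 genes, and p-values are two-sided with Benjamini-Hochberg adjustment over all of them and a threshold of 0.05. Log2 changes understate the change of genes of low abundance, and fold values are ratios of mean FPKM. The 6 ratios of gene pairs were compared by exact permutation tests over libraries. Genes named outside the 10 are up to 4 called genes of lowest p in each of 7 related lists and binding partners and cell type markers whatever their values. The members, lists and tests were chosen with earlier results of these data known. Listed symbols that were not matched in the table were not used here. A listed marker is not reported here. The alternatives tried were other pseudocounts, filters, scalings, a replicate block, leaving out each library and voom.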

Additional observations from a re-analysis of the deposited data

How the results depend on the processing

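The counts of 3 members higher and 5 lower kept these values in each of 15 alternatives except quantile normalization and cyclic loess, where 2 were higher because Lag3 was lost. The adjusted p of Tigit, Cd274, Ctla4, Cd160, Cd96, Pdcd1 and Btla ran up to 0.0022, 0.00485, 0.00383, 0.00377, 0.00908, 0.011 and 0.0306, while that of Cd226 was at least 0.0677 and that of Havcr2 at least 0.12. Over all genes, 2393 were higher and 1836 lower, against 1403 and 2452 with TPM, 2093 and 2527 with voom (chosen after seeing the data), and 1710 to 2290 and 1359 to 1697 when a library was left out. The change of Cd28, not called, was 0.07 and turned to -0.0004 with TPM. Cd80 passed as lower with quantile normalization and cyclic loess (adjusted p = 0.0441 and 0.0451), and Crtam, an activating receptor, with TPM, quantile normalization, cyclic loess and voom (adjusted p = 0.00802 to 0.0434). With the replicate number as a block, 2052 genes were higher and 1548 lower. Members stayed at 3 and 5, and no member changed its call. Deviations of same-numbered libraries from their group means were little correlated (-0.054, 0.026 and -0.039). With 3 libraries per group, these correlations cannot tell whether the numbers pair the samples. The directions of the 6 ratios were the same under 8 alternatives each, although no setting could give a p under 0.1. The planned edgeR and DESeq2 fits were not run, and voom on recovered reads was fitted instead. At 334 to 441 reads, the depth of Havcr2 limits what can be said of its change.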
